A study of Ovis aries with 32 samples.

Results

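Aquaporins are channel proteins that let water, and in some members glycerol, cross cell membranes. The genes described here are AQP1, AQP3, AQP4, AQP5, AQP6, AQP7, AQP8, AQP9 and AQP11 of the sheep, which are 9 of the 30722 rows of the deposited expression table and 9 of its 17372 rows with a gene name. Each symbol was found on exactly 1 row. The set was chosen by the measured tail fat levels of AQP5, which were higher in sheep fed succinic acid. The diet differences of all 9 genes in tail fat are therefore given as a description with no test. Comparisons of tail fat with other tissues were tested, though not for AQP5. AQP2, also found by name, is given beside AQP5, MIP (the lens aquaporin) did not exceed 1.55 TPM (transcripts per 1000000) in any library, and AQP10 and AQP12 were not analysed here.

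The study fed male Tan sheep, a fat-tailed breed, that were 3 months old at the start. The SA sheep received a basal pellet with succinic acid (a metabolite of the tricarboxylic acid cycle) added at 1% of dry matter, and the CON sheep received the pellet alone, 12 sheep per diet, for 60 days after 10 days of adaptation. Messenger RNA was sequenced from 4 sheep per diet in 4 tissues, which gave 32 libraries in 8 groups of 4 that are labelled hypothalamus SA and CON, pituitary SA and CON, liver SA and CON, and tail fat SA and CON. No sheep carried a mutation or another treatment according to the labels, and the labels do not tie a replicate number to a sheep across tissues.

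Members of the family fall by substrate into water channels and aquaglyceroporins. AQP1 is the water channel of capillary endothelium and of the choroid plexus, AQP4 is the channel of astrocyte endfeet, AQP5 serves fluid-secreting epithelia such as salivary, lacrimal and sweat glands, AQP8 sits in the canalicular and mitochondrial membranes of rodent hepatocytes, and AQP6 and AQP11 are mostly found inside the cell. AQP3, AQP7 and AQP9 also pass glycerol. AQP7 is known as the route by which adipocytes release the glycerol of lipolysis, and AQP9 as the route by which hepatocytes take glycerol up for gluconeogenesis.

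Levels are given in TPM, the relative abundance of a transcript scaled to 1000000 per library, as estimated by the authors. TPM is corrected for transcript length and sums to a fixed total, so any class of transcripts that gains in share pushes all other values down. Depth is not recorded in TPM, and no counting error can be given. In tissue pieces, fewer cells of a type and less RNA per cell cannot be told apart. The liver libraries labelled SA held 52.2% to 70.9% mitochondrial transcripts, against 20.2% to 27.8% in those labelled CON, a difference of 35.7 percentage points (exact permutation test, two-sided, p = 0.0286, the smallest that 4 against 4 allows, adjusted p = 0.114 over the 4 tissues). In the other tissues the ranges of the diets overlapped. CCDC152, a gene that in human overlaps SELENOP on the opposite strand, was at 168 to 842 TPM in the SA livers and listed at 0 in the CON livers. Among tail fat libraries 6 had 57.8 to 186 TPM, while SA replicate 1 and CON replicate 2 had 0.07 and 0.12 TPM, so that split runs with the diet in liver and across it in tail fat. The tissue labels were set against marker genes. ALB marked the livers and ADIPOQ and FABP4 the tail fat. The libraries labelled hypothalamus and pituitary held abundant neuron and astrocyte transcripts, but mean levels of the hypothalamic peptide genes AVP and HCRT were 0.472 and 1.98 TPM in the SA group and 0.352 and 1.53 TPM in the CON group. The pituitary hormone genes CGA and FSHB were listed at 0 in all 8 libraries labelled pituitary, and PRL averaged 0.448 TPM in SA and 0.0675 TPM in CON. These 2 tissues are therefore called by their labels.

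The main aquaporins differed in part between tissues, and AQP7 was among them in both liver and tail fat. Tissue labelled hypothalamus or pituitary carried AQP4, liver carried AQP9, AQP7, AQP8 and AQP3, and tail fat carried AQP7 and AQP1. The summed TPM of the 9 genes averaged 201 ± 48.2 in SA and 178 ± 30.1 in CON hypothalamus libraries (SD, n = 4 each, as throughout), 186 ± 74.8 in SA and 152 ± 37.1 in CON pituitary libraries, 206 ± 122 in SA and 563 ± 141 in CON livers, and 548 ± 244 in SA and 228 ± 118 in CON tail fat. AQP4 made up 96.1% of that sum in SA and 95.4% in CON hypothalamus libraries, and 95.8% in SA and 92.4% in CON pituitary libraries. In tail fat AQP7 held 52.0% in SA and 69.9% in CON, AQP1 held 17% in SA and 23.4% in CON, and AQP5 held 25.2% in SA and 0.864% in CON. In liver AQP9 held 24.3% in SA and 44.2% in CON, and AQP8 held 45.1% in SA and 18.9% in CON.

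**Figure D1:**
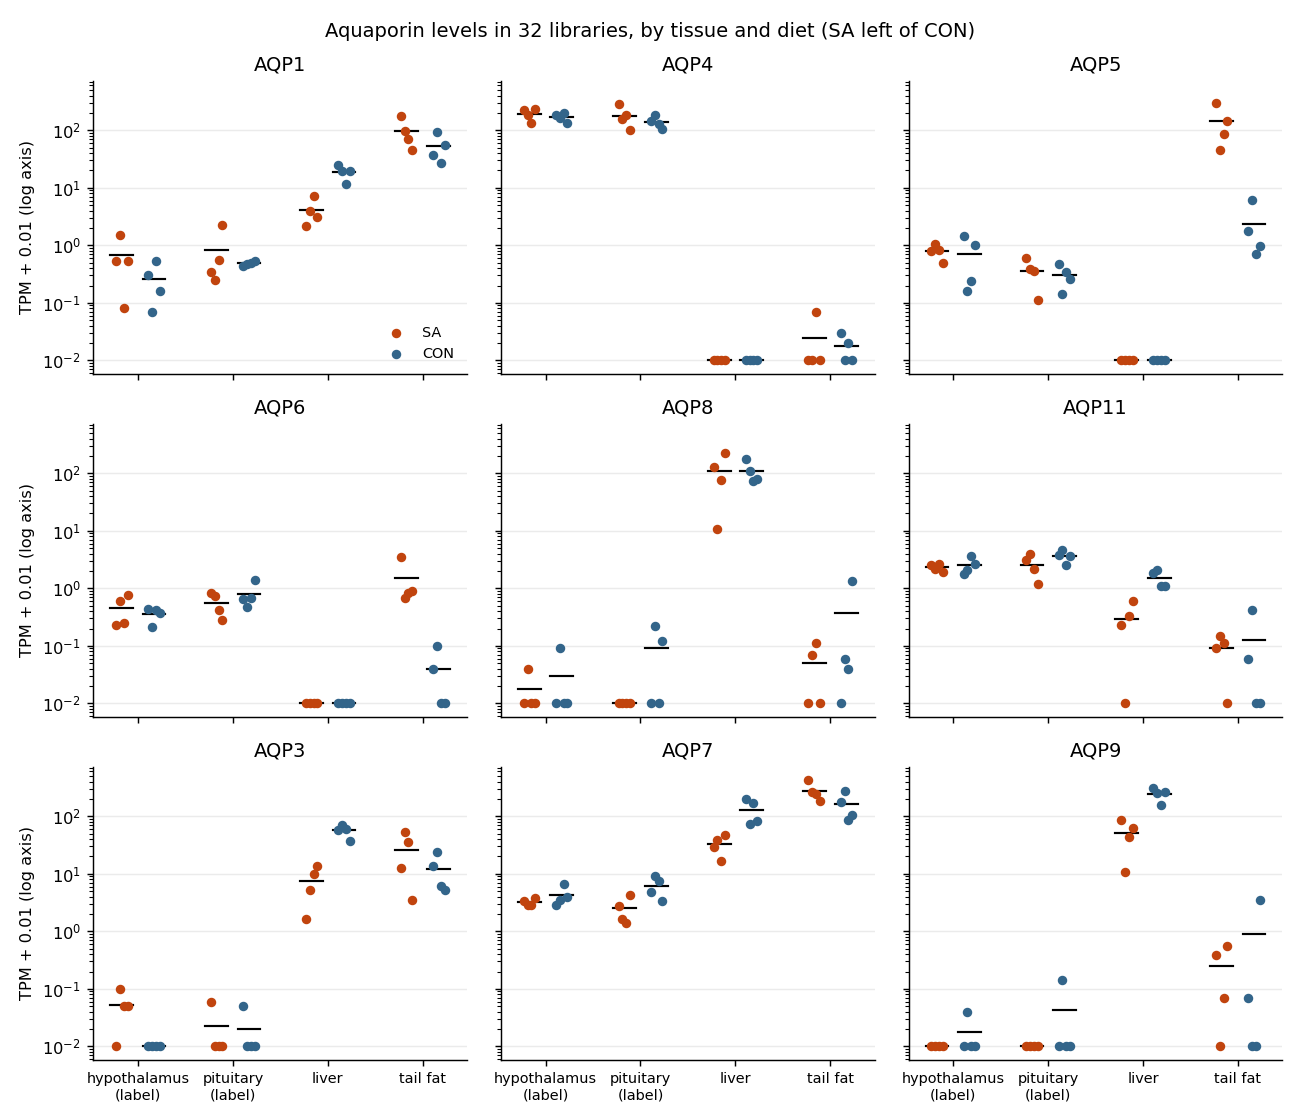
Level of each aquaporin in TPM (log axis, 0.01 added so that a listed 0 can be drawn) in every library of the 4 tissues, SA left of CON, with a line at each group mean. The AQP5 points stand highest in SA tail fat, at 45.4 to 299 TPM, and AQP4 points stand above 100 TPM in the libraries labelled hypothalamus and pituitary only.

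**Figure D2:**
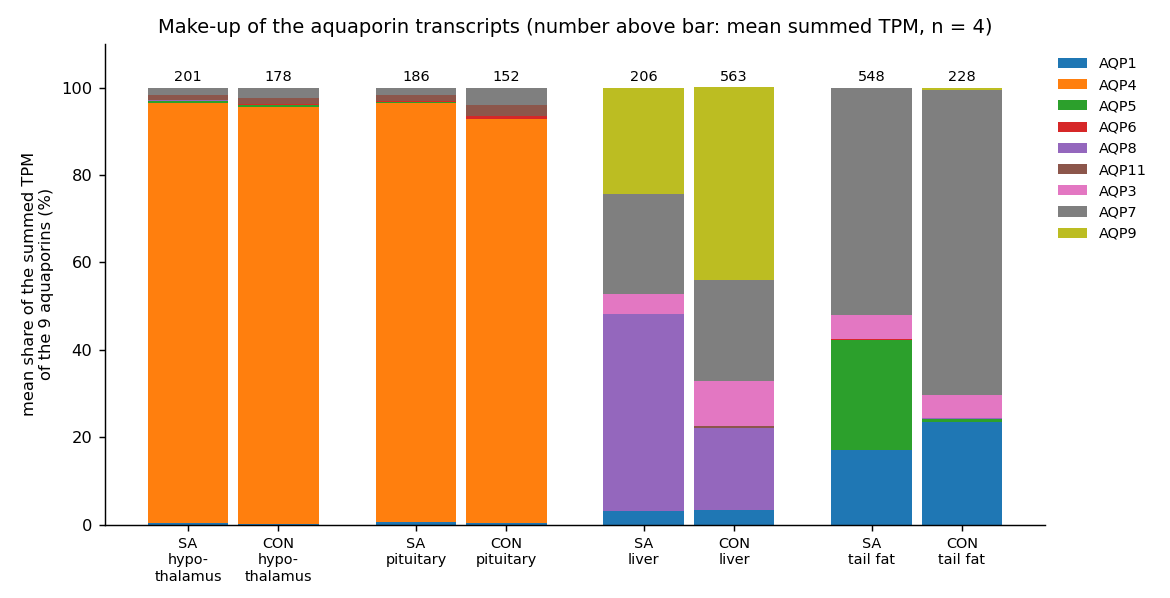
Mean share (%) of each aquaporin in the summed TPM of the 9 genes, 1 bar per group of 4 libraries, with the mean sum above the bar. AQP4 fills over 92% of the 4 bars at the left, and AQP5 fills 25.2% of the SA tail fat bar and 0.864% of the CON bar.

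AQP5 was the gene for which the set was drawn up. Its tail fat level was 299, 45.4, 86.5 and 146 TPM in SA replicates 1 to 4, and 1.76, 6.10, 0.69 and 0.95 TPM in CON replicates 1 to 4. Every SA library was above every CON library, with a gap between 45.4 and 6.10 TPM. The means were 144 ± 111 TPM in SA and 2.37 ± 2.52 TPM in CON, a ratio of 60.8. On the log2(TPM + 1) scale, which is used for all differences below and which understates the change of low genes, the difference was 5.35 with a standard error (SE) of 0.61. That was the second highest of the 11185 genes that reached 1 TPM in at least 4 of the 8 tail fat libraries. The first was a gene without a name, at 5.43. Among these genes, 0.697% passed the limma test described below, 0.277% as higher and 0.420% as lower, and in 4.63% every SA library was above every CON library. The 78 genes behind the 0.697% became 3 without CON replicate 1 and 261 without CON replicate 2. Within the libraries of low CCDC152, AQP5 was at 299 TPM in the SA library and 6.10 TPM in the CON library. In the other 6 libraries it was at 45.4 to 146 TPM in SA and 0.69 to 1.76 TPM in CON, a difference of 5.33.

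AQP5 outside tail fat was low. It was at 0.78, 1.05, 0.83 and 0.49 TPM in SA and 1.47, 0.15, 0.23 and 0.99 TPM in CON hypothalamus libraries, and at 0.10 to 0.58 TPM in SA and 0.13 to 0.47 TPM in CON pituitary libraries. It was listed at 0 in all 8 livers. The diets overlapped in both labelled tissues in which it was listed above 0. In CON sheep tail fat had the highest mean of AQP5, and the range of that group, 0.69 to 6.10 TPM, overlapped the 0.15 to 1.47 TPM of the hypothalamus libraries.

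The nearest relatives of AQP5 lie beside it. By RefSeq (assembly ARS-UI_Ramb_v3.0) the order of genes is RACGAP1, AQP6, AQP5, AQP2 and FAIM2. The genome build of the deposited table is not given in the sources used here, so no positions are given. AQP6, an anion-permeable aquaporin of kidney vesicles, was at 3.52, 0.67, 0.82 and 0.89 TPM in SA tail fat and 0.03, 0.09, 0 and 0 TPM in CON tail fat. The SA libraries were all above the CON libraries, and AQP6 did not reach the filter on low values. AQP2, the vasopressin-regulated channel of the kidney collecting duct, was at 5.45, 1.12, 1.31 and 0.97 TPM in SA and 0.58, 2.63, 0.32 and 0.32 TPM in CON, and its groups overlapped.

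Relative to AQP5 in the same library, AQP6 stood at 1.18%, 1.48%, 0.948% and 0.609% in SA, and at 1.70%, 1.48%, 0% and 0% in CON. AQP2 stood at 0.664% to 2.47% of AQP5 in SA and at 33.0% to 46.4% in CON. In CON the AQP6 shares above 0 rest on 0.03 and 0.09 TPM, and AQP6 was listed at 0 in 2 CON libraries. A like share of AQP6 under both diets is therefore not shown. The share of AQP2 was higher in every CON library than in any SA library. Because the 3 genes are relatives, reads placed among them by the authors' estimation are uncertain, and whether any AQP6 value comes from AQP5 reads was not tested. The flanking genes that are no aquaporins were near 0 in tail fat. RACGAP1, a regulator of cell division, averaged 0.305 TPM in SA and 0.675 TPM in CON, and FAIM2, a neuronal inhibitor of cell death, averaged 0.130 TPM in SA and 0.095 TPM in CON. FAIM2 averaged 331 TPM in SA and 309 TPM in CON hypothalamus libraries, where AQP2 did not exceed 0.03 TPM.

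**Figure D3:**
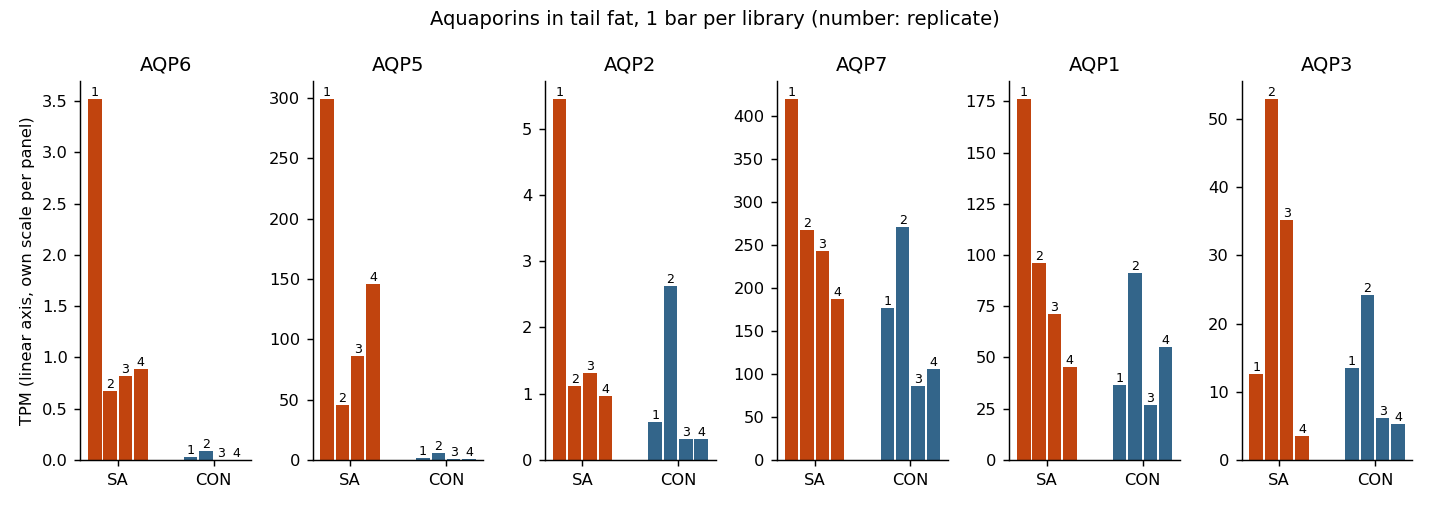
TPM of AQP6, AQP5, AQP2, AQP7, AQP1 and AQP3 in the 8 tail fat libraries, 1 bar per library with its replicate number, SA left of CON, on a linear axis from 0 with its own scale in each panel. The 4 SA bars of AQP6 and AQP5 are all above their 4 CON bars, and the bars of the other 4 genes overlap between the diets.

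AQP7, the adipocyte glycerol channel, was the most abundant aquaporin of tail fat. It was at 419, 267, 243 and 187 TPM in SA and 176, 270, 85.7 and 106 TPM in CON, with means of 279 ± 99.5 and 160 ± 83.5 TPM and a difference of 0.88 (SE 0.46). CON replicate 2 lay above 3 of the 4 SA libraries, so the groups overlapped in the TPM as deposited. With mitochondrial and ribosomal transcripts removed and the rest rescaled, AQP7 was at 447 to 575 TPM in SA and 290 to 361 TPM in CON. These ranges did not overlap, while those of AQP1 and AQP3 still did. The share of all genes without overlap after this rescaling was not counted. AQP5 amounted to 71.3%, 17%, 35.7% and 78.2% of AQP7 in SA replicates 1 to 4, and to 0.998%, 2.26%, 0.805% and 0.897% in CON replicates 1 to 4.

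AQP1 was at 176, 96.0, 71.0 and 45.3 TPM in SA and 36.4, 91.1, 26.7 and 55.0 TPM in CON tail fat, with means of 97.1 ± 56.6 and 52.3 ± 28.4 TPM and a difference of 0.86 (SE 0.52). The groups overlapped. Endothelial marker genes summed to 401, 332, 257 and 118 TPM in SA and 184, 479, 157 and 244 TPM in CON, and AQP1 amounted to 27.6% to 43.9% of that sum in SA and 16.9% to 22.5% in CON. The ratio of AQP1 to the endothelial sum did not overlap between the diets, although the levels of both did.

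AQP3, a glycerol channel known from skin and kidney epithelium, was at 12.5, 52.9, 35.2 and 3.51 TPM in SA and 13.5, 24.2, 6.18 and 5.29 TPM in CON, with means of 26.0 ± 22.3 and 12.3 ± 8.75 TPM and a difference of 0.71 (SE 0.71). SA replicate 4 had the lowest AQP3 of the 8 libraries and SA replicate 2 the highest. AQP1, AQP3, AQP5 and AQP7 were the 4 aquaporins of the set that passed the filter in tail fat. The other 5 are accounted for by their levels. AQP4 reached at most 0.06 TPM, AQP11 was at 0 to 0.14 TPM in SA and 0 to 0.41 TPM in CON, and AQP6 is given above. AQP8 was at 0 to 0.10 TPM in SA and at 0, 0.05, 0.03 and 1.34 TPM in CON. AQP9 was at 0.37, 0, 0.06 and 0.54 TPM in SA and at 0.06, 0, 0 and 3.51 TPM in CON.

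The high values of AQP8 and AQP9 both came from CON replicate 4. That library also held 473 TPM of ALB, the serum albumin gene of hepatocytes, against 0.68 to 11.3 TPM in the other 7 tail fat libraries. The 10 hepatocyte markers summed to 15.1 to 29.3 TPM in SA tail fat and to a lowest of 6.39, a median of 21.4 and a highest of 688 TPM in CON tail fat. Liver transcripts moved with the 2 values in this 1 library, and their part in them was not tested.

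**Figure D4:**
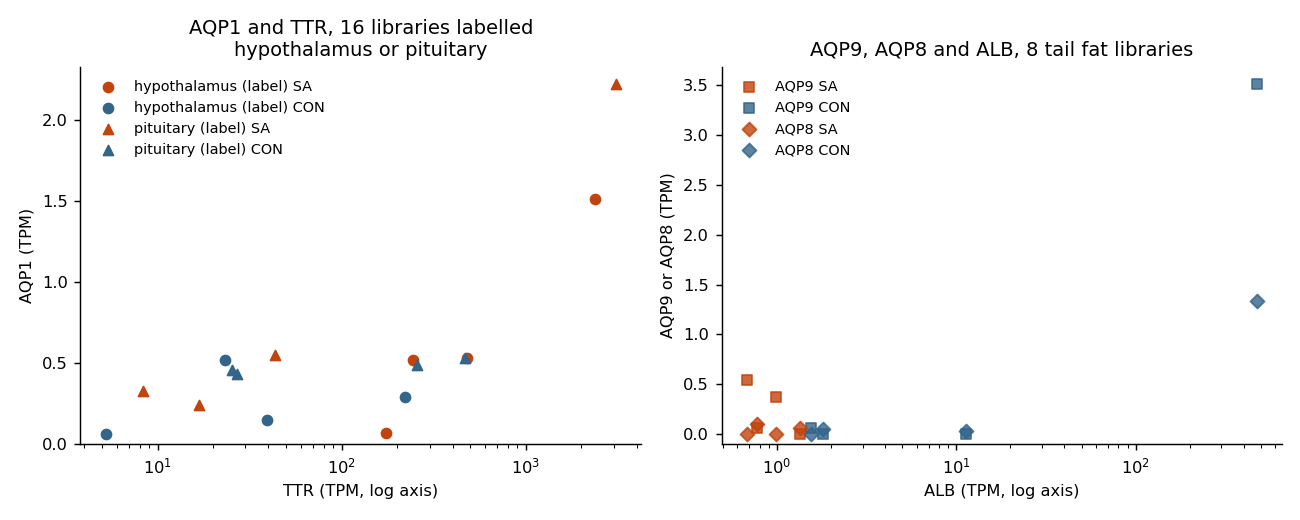
Left, AQP1 against TTR in TPM (TTR on a log axis) in the 16 libraries labelled hypothalamus or pituitary. Right, AQP9 and AQP8 against ALB in TPM (ALB on a log axis) in the 8 tail fat libraries. AQP1 is highest in the 2 libraries of highest TTR, and AQP9 and AQP8 are highest in the 1 library of highest ALB.

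AQP5 is best known from glands and skin appendages, so the markers of such cells in tail fat are given beside it. Of 15 exocrine gland markers 10 were in the table, and their sum ranged from 24.9 to 63.3 TPM in SA and from 10.2 to 90.7 TPM in CON. Of these 10, EPCAM, KRT7, PIP and FOXA1 were listed at 0 in all 4 SA tail fat libraries. Only PIP was listed at 0 in all 4 CON tail fat libraries. The keratins KRT8 and KRT18 averaged 0.76 and 0.107 TPM in SA, and 1.61 and 0.410 TPM in CON. Most of the marker sum was CLDN4, a tight junction gene, at 35.9 ± 16.4 TPM in SA and 37.0 ± 33.2 TPM in CON. Of 12 keratinocyte markers 8 were in the table. Their sum was 7.81 to 21.2 TPM in SA and 9.22 to 18.1 TPM in CON, and TP63, the defining factor of basal keratinocytes, did not exceed 0.02 TPM in SA or 0.08 TPM in CON. Adipocyte markers summed to 46694, 61154, 42298 and 11310 TPM in SA and 26754, 75704, 11343 and 12188 TPM in CON. Neutrophil markers summed to 774 to 5796 TPM in SA and 580 to 1722 TPM in CON. Of 9 such markers 6 were in the table, and only S100A8, S100A12 and LTF passed the filter. In each diet 3 of the 6 stayed under 1 TPM in every library, and MMP8 was listed at 0 in all. The sum therefore rests on few genes and does not show abundant neutrophils. The part of the cell mixture in the aquaporin values was not tested.

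Genes around glycerol handling in tail fat share the contrast that chose the set and are given without a test. Of 10 genes of triglyceride breakdown and glycerol phosphate supply, 9 passed the filter and 7 had a positive SA minus CON difference, with a median of 0.60 against -0.06 over all genes, 46.5% of which were positive. AGPAT2, which adds the second fatty acid to glycerol phosphate, was at 1628 to 6699 TPM in SA and 337 to 1030 TPM in CON. MGLL, which frees the glycerol from monoglyceride, was at 112 to 179 TPM in SA and 51.1 to 79.2 TPM in CON. Both had every SA library above every CON library. LIPE, the hormone-sensitive lipase, averaged 301 ± 195 TPM in SA and 329 ± 264 TPM in CON. PPARG, the adipocyte receptor known to drive AQP7 in mouse fat, averaged 175 ± 59.5 TPM in SA and 218 ± 93.3 TPM in CON. Of the 14 genes of epithelial fluid secretion, 7 passed the filter, 4 of them with a positive and 3 with a negative difference (median 0.19).

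The liver is the organ that takes up glycerol, and 3 of its 4 main aquaporins are glycerol channels. AQP9 was at 87.1, 10.85, 43.9 and 62.5 TPM in SA and 312, 257, 157 and 261 TPM in CON. The highest SA liver lay below the lowest CON liver. The means were 51.1 ± 32.1 TPM in SA and 247 ± 65.1 TPM in CON, and AQP9 fell by 2.53 (SE 0.57, adjusted p = 0.00361, limma with Benjamini-Hochberg adjustment over 11582 genes, as for all liver values).

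AQP7 was at 29.4, 38.1, 16.5 and 46.2 TPM in SA and 200, 72.0, 167 and 81.5 TPM in CON livers. The groups did not overlap, with means of 32.5 ± 12.7 and 130 ± 63.1 TPM and a difference of -1.92 (SE 0.43, adjusted p = 0.00331). AQP3 was at 1.64, 5.20, 9.90 and 13.5 TPM in SA and 57.6, 70.5, 60.5 and 37.4 TPM in CON. Its SA mean, 7.56 ± 5.20 TPM, was 13.4% of the CON mean, 56.5 ± 13.9 TPM, and its difference, -2.98 (SE 0.49, adjusted p = 0.000622), was the furthest from 0 among the 6 aquaporins tested in liver.

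AQP1, the endothelial water channel, was at 2.19, 3.93, 7.07 and 3.05 TPM in SA and 24.4, 19.7, 11.6 and 19.1 TPM in CON livers. Its groups did not overlap, and the difference was -2.0 (SE 0.32, adjusted p = 0.000527). Of 12 endothelial marker genes 11 were tested and 9 fell, with a median of -2.07, where 59.1% of all genes tested in liver fell and their median was -0.83. The marker sum was 21.1 to 39.2 TPM in SA and 132 to 173 TPM in CON. CDH5, a junction protein of endothelium, averaged 2.84 ± 0.981 TPM in SA and 19.9 ± 2.37 TPM in CON.

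AQP8 was the only aquaporin tested in liver that did not pass, and its difference was not tested against those of the others. It was at 128, 10.5, 75.4 and 226 TPM in SA and 175, 108, 74.1 and 80.5 TPM in CON. The means were 110 ± 91.2 and 109 ± 46.2 TPM, and the groups overlapped over most of their range. The difference on the log2 scale was -0.55 (SE 0.81, adjusted p = 0.572). SA replicate 2 was the lowest of the 8 livers, and the difference turned to 0.33 without that library, to 0.40 after quantile normalization and to 0.53 after removal of mitochondrial and ribosomal transcripts, none of which passed. At this spread neither a rise nor a fall of AQP8 was shown.

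AQP11, a channel of the endoplasmic reticulum, was at 0.22, 0, 0.32 and 0.58 TPM in SA and 1.80, 2.04, 1.10 and 1.10 TPM in CON livers, a difference of -0.97 (SE 0.19, adjusted p = 0.00154). It passed the filter only through the CON libraries. In the RefSeq table it overlaps CLNS1A, a chloride channel regulator at 10.3 TPM in SA and 16.4 TPM in CON livers, and the strand setting of the authors' counting is not given in the sources used here, so AQP11 is uncertain. AQP2, AQP4, AQP5 and AQP6 were listed at 0 in all 8 livers.

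AQP9, AQP7, AQP3 and AQP1 thus fell in the livers labelled SA, as did AQP11, which had to differ because it passed the filter through the CON libraries alone. These falls have to be read against the whole table, since 64.3% of the 11582 genes passed, 59.1% as lower and 5.21% as higher, the median difference over all genes was -0.83, and every SA library was below every CON library in 54.2% of genes. After mitochondrial and ribosomal transcripts were removed and the rest rescaled, 2 of the 6 tested aquaporins still passed, both as lower. In that fit 28.4% of 12858 genes passed, 15.7% as higher and 12.7% as lower. AQP3 was then at 3.78, 24.0, 28.5 and 31.0 TPM in SA and 74.6, 99.5, 84.3 and 48.6 TPM in CON, a difference of -2.04 (adjusted p = 0.0258). AQP9 was then at 201, 50.1, 126 and 143 TPM in SA and 404, 362, 219 and 339 TPM in CON, a difference of -1.46 (adjusted p = 0.0206). AQP1 came to -1.10 (adjusted p = 0.0756) and AQP7 to -0.85 (adjusted p = 0.187), and the values of both then overlapped between the diets. AQP11 came to -0.89 (adjusted p = 0.0517) with groups that did not overlap. Over 15 alternative fits the difference of AQP3 ranged from -3.32 to -2.04 and that of AQP9 from -2.89 to -1.46, with adjusted p up to 0.0258 and 0.0266. Diet, mitochondrial share and the CCDC152 split ran together in the livers and cannot be told apart there.

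**Figure D5:**
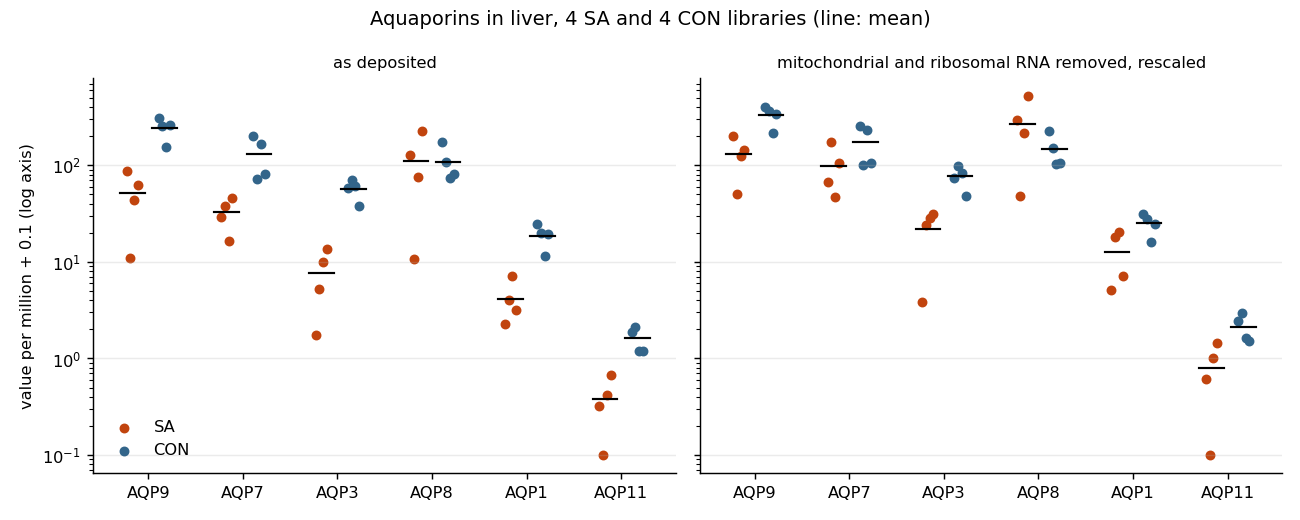
Aquaporins in the 4 SA and 4 CON livers, TPM on a log axis with 0.1 added, with a line at each mean. Left, TPM as deposited, where the groups of AQP9, AQP7, AQP3, AQP1 and AQP11 do not overlap; right, after removal of mitochondrial and ribosomal transcripts and rescaling, where AQP9, AQP3 and AQP11 still do not overlap and AQP7, AQP8 and AQP1 do.

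Lists of other liver genes are given beside the whole table, in which 59.1% of genes fell and the median was -0.83, so a share of falls near 59.1% is no result about a list. Of 10 genes of glycerol uptake and use 8 were tested, 5 fell, none rose, and the median was -1.55. GPD1L, a glycerol phosphate dehydrogenase, averaged 1.88 ± 0.35 TPM in SA and 7.24 ± 1.95 TPM in CON (-1.49, adjusted p = 0.000269). FBP1, an enzyme of gluconeogenesis, averaged 172 ± 89.8 TPM in SA and 623 ± 155 TPM in CON (-2.01, adjusted p = 0.00412). Of 12 factors known to act on aquaporin genes or their tissues, 10 were tested and 5 fell (median -0.96), a share and a median near those of all genes. Among them FOXO1, an insulin-inhibited factor, was at 0.888 ± 0.32 TPM in SA and 8.86 ± 1.30 TPM in CON (-2.39, adjusted p = 3.43e-05). HIF1A, the hypoxia factor, fell by 1.78 (adjusted p = 0.000111). ESRRA, a receptor that drives mitochondrial genes, fell by 1.68 (adjusted p = 0.000343), and HNF4A, a hepatocyte factor, fell by 1.30 (adjusted p = 0.00615). All 10 hepatocyte markers were tested and 7 fell, with a median of -1.76, against 59.1% and -0.83 over all genes. Their sum was 8025 to 32982 TPM in SA and 92351 to 106087 TPM in CON.

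In tissue labelled hypothalamus the diet left no aquaporin past the threshold. AQP4 was at 226, 182, 131 and 236 TPM in SA and 182, 164, 200 and 132 TPM in CON. The groups overlapped, and the difference was 0.17 (SE 0.20, adjusted p = 0.949, limma). AQP7 was at 3.37, 2.86, 2.83 and 3.85 TPM in SA and 2.90, 3.43, 6.60 and 3.93 TPM in CON (-0.26, adjusted p = 0.947). AQP11 was at 1.89 to 2.68 TPM in SA and 1.79 to 3.64 TPM in CON (-0.07, adjusted p = 0.982). These 3 were the members that passed the filter, and 0% of the 14126 genes tested passed the threshold in limma, with 493 at an unadjusted p under 0.05. AQP6 was at 0.22 to 0.74 TPM in SA and 0.20 to 0.43 TPM in CON, and AQP3, AQP8 and AQP9 did not exceed 0.09 TPM.

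In tissue labelled pituitary AQP4 was at 279, 155, 183 and 100.8 TPM in SA and 142, 187, 128 and 104 TPM in CON (0.29, SE 0.34, adjusted p = 0.747, limma). The diets overlapped. AQP7 was at 2.72, 1.63, 1.38 and 4.22 TPM in SA and 4.78, 9, 7.56 and 3.39 TPM in CON. Of the SA libraries 3 lay below every CON library, the means were 2.49 ± 1.29 and 6.18 ± 2.56 TPM, and the difference of -1.04 (SE 0.33) missed the threshold (adjusted p = 0.747, limma). AQP11 was at 1.18 to 3.9 TPM in SA and 2.54 to 4.63 TPM in CON (-0.43, adjusted p = 0.747). No gene, 0% of 14472, passed in limma, with 218 at an unadjusted p under 0.05. AQP6 was at 0.27 to 0.81 TPM in SA and 0.46 to 1.37 TPM in CON. AQP8 and AQP9 were listed at 0 in all SA libraries and reached 0.21 and 0.13 TPM in CON, and AQP3 did not exceed 0.05 TPM.

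AQP4 is held at the astrocyte endfoot by a complex of anchoring proteins around dystroglycan. Of 12 genes of that complex and its endfoot partners 9 were tested in each labelled tissue, and none passed the threshold in either, with medians of 0.11 in hypothalamus libraries and -0.15 in pituitary libraries, against 0.02 and -0.27 over all genes tested there. KCNJ10, the potassium channel that shares the endfoot with AQP4, averaged 34.2 ± 5.19 TPM in SA and 49.6 ± 20.6 TPM in CON hypothalamus libraries.

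AQP1 in these tissues was low except in a few libraries. It was at 0.52, 1.51, 0.07 and 0.53 TPM in SA and 0.29, 0.06, 0.52 and 0.15 TPM in CON hypothalamus libraries, and at 0.33, 0.24, 0.55 and 2.22 TPM in SA and 0.43, 0.46, 0.49 and 0.53 TPM in CON pituitary libraries. The highest values were in hypothalamus SA replicate 2 and pituitary SA replicate 4. TTR, the transthyretin gene that the choroid plexus expresses strongly, was at 2384 and 3081 TPM in those 2 libraries and at 5.23 to 479 TPM in the other 14. Summed markers of choroid plexus and ependyma were at 211 to 2451 TPM in SA and 52.7 to 255 TPM in CON hypothalamus libraries, and at 73.2 to 3121 TPM in SA and 59.2 to 559 TPM in CON pituitary libraries. In the 2 libraries of highest TTR that gene made up most of the sum, 2384 of 2451 TPM and 3081 of 3121 TPM, and the part of choroid plexus tissue in the AQP1 values was not tested.

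The tissues were compared in 1 fit of the 16 CON libraries, in which 7 of the 9 aquaporins passed the filter and AQP5 and AQP6 did not. A member that passes only through the tissue where it is high had to differ from the others. This holds for AQP8 and AQP9 through liver, and for AQP4 through the 2 labelled tissues. For them the sizes are what these tests add. The background was high, since 44.1% of 15929 genes differed between liver and tail fat, 67.4% between hypothalamus libraries and tail fat, 71.4% between pituitary libraries and tail fat, 68.2% between liver and hypothalamus libraries, 73.1% between liver and pituitary libraries, and 13.1% between the 2 labelled tissues.

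Among the glycerol channels AQP9 was highest in liver, at 247 ± 65.1 TPM, against 0.892 ± 1.75 TPM in tail fat (difference 7.34, SE 0.37, adjusted p = 1.68e-11, limma). AQP3 was highest in liver too, at 56.5 ± 13.9 TPM, against 12.3 ± 8.75 TPM in tail fat (2.31, SE 0.33, adjusted p = 1.73e-05), and it did not exceed 0.04 TPM in CON libraries of the labelled hypothalamus and pituitary. In SA sheep that order was the other way round, with 7.56 ± 5.20 TPM in liver and 26.0 ± 22.3 TPM in tail fat, a difference of -1.38 that did not pass (adjusted p = 0.0769). AQP7 averaged 130 ± 63.1 TPM in CON liver and 160 ± 83.5 TPM in CON tail fat, a difference of -0.28 within its error (SE 0.41, adjusted p = 0.629). That difference passed in SA sheep (-3.09, adjusted p = 3.23e-07), and in CON sheep after quantile normalization (-0.92, adjusted p = 0.0123) or after removal of mitochondrial and ribosomal transcripts (-1.04, adjusted p = 0.0115). AQP7 was lower in hypothalamus libraries than in tail fat by 4.85 (adjusted p = 9.74e-09).

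Among the water channels AQP4 was at 170 ± 28.9 TPM in CON hypothalamus libraries and 141 ± 34.8 TPM in CON pituitary libraries, and the difference did not pass (0.28, SE 0.21, adjusted p = 0.486, limma). It was listed at 0 in every liver, and the difference of liver from hypothalamus libraries was -7.40 (SE 0.21, adjusted p = 3.06e-15). AQP8 was at 109 ± 46.2 TPM in CON liver and 0.355 ± 0.657 TPM in CON tail fat (6.37, SE 0.28, adjusted p = 2.35e-12). AQP1 was at 18.7 ± 5.30 TPM in CON liver and 52.3 ± 28.4 TPM in CON tail fat (-1.33, SE 0.30, adjusted p = 0.00158), and in CON hypothalamus libraries it was at 0.255 ± 0.20 TPM. AQP11 was at 3.66 ± 0.861 TPM in CON pituitary libraries, 2.53 ± 0.825 TPM in hypothalamus libraries, 1.51 ± 0.483 TPM in liver and 0.115 ± 0.198 TPM in tail fat. The difference between the 2 labelled tissues did not pass (-0.41, adjusted p = 0.268), nor did that of liver from hypothalamus libraries (-0.48, adjusted p = 0.0504). This last difference turned to 0.47 after quantile normalization (adjusted p = 0.0468) and passed when a single CON library was left out (hypothalamus replicate 1 or 2, pituitary replicate 2 or 3, liver replicate 2 or tail fat replicate 2, adjusted p 0.0302 to 0.0488). It also passed as lower in liver without mitochondrial and ribosomal transcripts (-1.01, adjusted p = 0.000694, limma) and in SA libraries (-1.38, adjusted p = 1.93e-05, limma).

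Whether the diet difference itself depended on the tissue was tested over hypothalamus, pituitary and liver libraries, leaving out tail fat because it chose the set. The test was passed by 31.9% of 16328 genes. AQP1 (adjusted p = 0.000149, limma), AQP3 (8.59e-06), AQP7 (0.0302) and AQP9 (0.000352) passed, and AQP4 (0.798), AQP8 (0.828) and AQP11 (0.095) did not. The SA minus CON difference in liver less that in hypothalamus libraries was -3.04 for AQP3, -2.52 for AQP9, -2.35 for AQP1 and -1.66 for AQP7. In hypothalamus and pituitary libraries AQP3 did not exceed 0.09 TPM and AQP9 did not exceed 0.13 TPM. No diet difference of these genes could show there, so their values restate the liver differences (-2.98 and -2.53). After removal of mitochondrial and ribosomal transcripts AQP1 (adjusted p = 0.134) and AQP7 (0.663) no longer passed. AQP7 also missed the threshold after quantile normalization (0.771), with a pseudocount of 0.1 (0.0581), with no filter (0.0578), and without hypothalamus SA replicate 4 (0.0581), hypothalamus CON replicate 1 (0.0654) or 2 (0.0551), liver SA replicate 3 (0.0761), or liver CON replicate 1 (0.0767) or 3 (0.0724). AQP11 passed without pituitary SA replicate 4 (0.0234) and with a pseudocount of 0.1 (0.012).

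Genes with a pattern most like each aquaporin were found by the cosine of TPM over the 32 libraries among 12945 named genes, as a description in which libraries of a group share tissue and diet. For AQP5 they were BCAT2 (0.980), which starts the breakdown of branched-chain amino acids, TGM5 (0.976), a transglutaminase, SREBF1 (0.976), a factor that drives lipid synthesis, SERPINB5 (0.968), a serpin, and DGAT2 (0.967), which completes triglyceride. BCAT2 averaged 907 TPM in SA and 139 TPM in CON tail fat, SREBF1 averaged 74.7 TPM in SA and 14.6 TPM in CON, and DGAT2 averaged 1402 TPM in SA and 312 TPM in CON. TGM5 averaged 18.1 TPM in SA and 4.7 TPM in CON tail fat, and SERPINB5 averaged 11.1 TPM in SA and 2.79 TPM in CON. All 5 had higher means in SA than in CON tail fat, which the likeness to AQP5 requires, and each had a smaller ratio than AQP5.

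For AQP1 the genes most alike were TSPO, GPD1 and BMP1 (0.986 to 0.981), and for AQP7 they were SERHL2, GPD1 and SLC25A34 (0.975 to 0.965). GPD1, which makes the glycerol phosphate of triglyceride, averaged 450 TPM in SA and 200 TPM in CON tail fat, and 48.2 TPM in SA and 134 TPM in CON liver. AQP1 and AQP7 had a cosine of 0.945 with each other, the highest of any pair of the 9. For AQP9 the genes were ITIH2, AHSG and UPB1 (0.995 to 0.991), which are made in the liver. ITIH2 averaged 161 TPM in SA and 892 TPM in CON liver. For AQP8 they were TMT1B, KMO and GLTPD2 (0.976 to 0.968), and TMT1B averaged 410 TPM in SA and 382 TPM in CON liver, so they also had similar means under both diets. For AQP4 they were SPARCL1, ITGB8 and CCDC190 (0.987 to 0.982), and SPARCL1, an astrocyte and vessel glycoprotein, averaged 1404 TPM in SA and 1304 TPM in CON hypothalamus libraries. For AQP3 they were F8, POSTN and GPC3, with lower cosines of 0.930 to 0.923.

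AQP3 and AQP7 are neighbours in the order NOL6, AQP3, AQP7 and NFX1. Their diet differences were negative in liver (-2.98 and -1.92) and positive in tail fat (0.71 and 0.88), where the groups overlapped in the TPM as deposited. NFX1, which lies next to AQP7, averaged 8.86 TPM in SA and 10.3 TPM in CON liver, and 5.47 TPM in SA and 8.52 TPM in CON tail fat. The pair was unlike across tissues, since AQP7 was listed above 1 TPM in all 32 libraries and AQP3 did not exceed 0.09 TPM in the 16 libraries labelled hypothalamus or pituitary.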

How the data were processed

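Stranded libraries were made from oligo(dT)-captured RNA, per the labels' protocols. The authors' tools were fastp, HISAT2 and RSEM, per the submitters' processing notes; neither versions nor genome build nor strand setting is given in the sources used here. TPM per gene was deposited by the authors, without scaling between libraries. Column sums were 936939 to 987320. The authors' 8 columns of group means were not used, and 13350 rows carry no gene name.

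Genes that reached 1 TPM in 4 or more libraries of a fit were tested on log2(TPM + 1) with limma 3.58.1 in R 4.3.3 (trend and robust eBayes, two-sided, Benjamini-Hochberg over all genes, threshold 0.05), after a check on simulated data. Each tissue was fitted alone for diet; the tissue contrasts used the CON libraries. All 9 aquaporins are named whatever their result; up to 4 genes per list past the threshold, neighbours in RefSeq, and the 3 (for AQP5, 5) genes of highest cosine. The members, gene lists and tests were chosen with earlier results of these data known. P-values measure the spread between libraries. Same-numbered libraries had correlated deviations from -0.33 to 0.36. Genes were matched by symbol. Genes named beyond these rules were chosen after their values were seen.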

Additional observations from a re-analysis of the deposited data

Results flagged for a closer look

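Groups of 4 libraries were checked where the highest library reached 1 TPM. In 4 of these 39 groups, 1 library stood apart from its group by Dixon's criterion. Each of the 4 groups reached 1 TPM only through the library that stood apart, so no chance rate can be set against them. AQP1 was at 2.22 TPM in pituitary SA replicate 4 and 0.24 to 0.55 TPM in the other 3 SA libraries. AQP6 was at 3.52 TPM in tail fat SA replicate 1 and 0.67 to 0.89 TPM in the others, the library that also held the most AQP5. AQP8 was at 1.34 TPM and AQP9 at 3.51 TPM in tail fat CON replicate 4, against at most 0.05 and 0.06 TPM in the other CON libraries.

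The joint interaction test of limma over hypothalamus, pituitary and liver libraries passed for 4 genes. Their SA minus CON difference in liver less that in hypothalamus libraries was -3.04 for AQP3, -2.52 for AQP9, -2.35 for AQP1 and -1.66 for AQP7, and liver against hypothalamus alone was not tested. AQP7 lost the call under several alternatives, and AQP1 lost it without mitochondrial and ribosomal transcripts.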

How the results depend on the processing

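Of 1404 values of single genes under alternatives, 1357 were counted as unchanged. Tested values were unchanged if they kept their side of the threshold and, except in the joint interaction test, which has no direction, their sign. The untested tail fat differences were unchanged if they kept their sign and moved by no more than the SE times the square root of 2. The call was lost in 17 and gained in 14, and 16 changed sign. Of these, 3 had a call before or after, AQP11 in liver minus hypothalamus libraries (0.47) and liver minus pituitary libraries (0.30) after quantile normalization, and AQP3 in liver minus tail fat with SA libraries (-1.38). The other 13 had none. AQP8 in liver came to 0.40 after quantile normalization, 0.53 without mitochondrial and ribosomal transcripts, and -1.10 to 0.33 with a library left out (0.33 without SA replicate 2), and its liver less hypothalamus difference in the interaction fit changed sign under the same 3 alternatives. Hypothalamus minus pituitary differences in SA libraries came to 0.04 for AQP3, 0.34 for AQP7, 0.01 for AQP8 and 0.00 for AQP9. With a library left out, that difference was -0.02 to 0.00 for AQP3 and -0.05 to 0.01 for AQP9, AQP11 in hypothalamus was -0.17 to 0.07, AQP7 in liver minus tail fat was -0.53 to 0.02, and pituitary minus tail fat was -0.34 to 0.07 for AQP8 and -0.71 to 0.02 for AQP9. The cause was not tested. The difference of AQP5 in tail fat ranged from 4.89 to 6.03 over 16 fits. Aquaporins passing in liver numbered 5, where 64.3% of all genes passed. Among the 5 was AQP11, which had to differ because it passed the filter through the CON libraries alone. The count was 3 after quantile normalization, 2 without mitochondrial and ribosomal transcripts (28.4% of all genes), and 4 to 5 with a library left out. In the interaction test 4 passed, where 31.9% of all genes did, and of these AQP3 and AQP9 were near 0 in the tissues other than liver. That count was 2 without mitochondrial and ribosomal transcripts and 3 to 5 with a library left out.

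Over all genes, tail fat gave 78 calls, against 0 with no filter, 27 with a filter at 5 TPM, 415 after quantile normalization, 1381 without mitochondrial and ribosomal transcripts, 1946 in 1 fit of all 32 libraries, 346 without the 2 libraries of low CCDC152 (chosen after seeing the data), and from 3 (without CON replicate 1) to 261 (without CON replicate 2) with a library left out. Liver gave 7445, against 4618 with a filter at 5 TPM, 4326 after quantile normalization (1886 of them higher), 3652 without mitochondrial and ribosomal transcripts (2025 higher), and 6095 to 7488 with a library left out. Hypothalamus and pituitary libraries gave 0 each, against 2 and 4 in 1 fit of all libraries, and 0 to 1 with a library left out (1 without hypothalamus CON replicate 3, pituitary SA replicate 2 or 3, or pituitary CON replicate 2 or 3). Hypothalamus minus pituitary libraries gave 2087, against 1317 with SA libraries and 1534 to 3188 (without tail fat CON replicate 2) with a library left out. The interaction gave 5206, and 4648 to 6970 with a library left out. With the replicate number as a block, tail fat gave 413 calls; with the block no other count moved by over 1.5 times and no single-gene call changed, and same-numbered libraries deviated together (correlation over 0.1) in only 10 of 48 pairs across tissues, so the numbers are not taken as pairing. All 4 pairs of SA hypothalamus with SA pituitary libraries did so (0.14 to 0.36), a hint from the data and not the design, and the 4 CON pairs of these tissues did not (-0.33 to 0.04). TPM holds no depth, and low values such as those of AQP6 and AQP11 have an unknown counting error.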
